A study of Mus musculus with 28 samples.

Results

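The 9 genes described here encode the protein coat of the chylomicron and the machinery that builds it: Apoa1, Apoa4, Apob, Apoc2, Apoc3, Apoe, Mttp, Apobec1 and Sar1b. They were chosen by name, as genes with these roles, but with earlier results of these data known. All 9 had a row in both organoid tables, out of 55463 genes in the series. Of these, 9 of 9 passed the filter on low values in the BMP table, and 8 of 9 passed it in the TGFb table, where Apoe lay under it. Expression was measured by mRNA sequencing in organoids, which are self-renewing epithelial cultures, grown from wild-type C57BL/6 mouse small-intestinal crypts. Per the labels, crypts were seeded in ENR medium without Bmp or Tgfb, and 1 recombinant ligand was then added at 500 ng/ml for 24 h. The BMP table held 4 untreated controls, 4 samples with BMP2, and 3 each with BMP3, BMP4, BMP5 and BMP7. The TGFb table held 3 untreated controls and 3 samples with Tgfb, and a further table held 2 samples of duodenal mesenchymal cells from PdgfraH2BeGFP mice. The series title names the terminal differentiation of villus-tip enterocytes under Tgfb-superfamily ligands as the subject, and the comparisons below ask which ligands moved these genes. The labels do not say whether replicates came from separate mice or cultures, so p-values measure only the spread between these samples.

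As background, enterocytes re-esterify absorbed fatty acids and export the triglyceride as chylomicrons. Apolipoprotein B is the structural protein of which each particle carries a single copy. Microsomal triglyceride transfer protein, the product of Mttp, loads lipid onto it in the endoplasmic reticulum. Apobec1 is the cytidine deaminase that edits Apob mRNA so that intestine makes a short apolipoprotein B. Sar1b is the GTPase that starts the coat of the vesicles carrying chylomicron precursors out of the endoplasmic reticulum. Apolipoproteins A-I and A-IV join the particle surface, C-II activates and C-III inhibits lipoprotein lipase, and E binds hepatic receptors. Bone morphogenetic proteins (BMPs) are mesenchymal ligands known to promote differentiation of villus enterocytes.

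The site on which Apobec1 acts is shown because Apob and Apobec1 were the members that changed with both BMP2 and Tgfb in the same direction as with BMP4. In GRCm38 with the GENCODE M21 annotation it lies at chr12:8008039-8008081 on the plus strand, in exon 26 of 29 of the transcript Apob-202, and it is coding sequence. Capitals mark the CAA codon, codon 2179 of a protein of 4505 residues, and the 11-base mooring element that the editing complex needs.
Apob editing site: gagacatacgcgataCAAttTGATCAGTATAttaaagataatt
The edited base is at position 8008054 of chromosome 12, and deamination there turns the codon into a stop. The tables give totals per gene, so the share of edited Apob mRNA was not measured here.

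RefSeq promoters of GRCm38.p6 were matched to 8 of the 9 members by symbol. The stretch before Apob is shown because Apob rose with BMP2, BMP4 and Tgfb alike. It lies at chr12:7977427-7977647 on the plus strand, ends 1 base before the first base of the gene in GENCODE M21 (7977648), and has capitals at a match to TATAAA.
Apob promoter: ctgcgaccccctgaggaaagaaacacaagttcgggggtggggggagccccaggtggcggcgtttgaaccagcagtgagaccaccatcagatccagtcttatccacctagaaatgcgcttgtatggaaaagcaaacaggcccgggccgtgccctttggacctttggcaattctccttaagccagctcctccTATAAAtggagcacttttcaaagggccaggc
These 221 bases had 55.7% G and C. Exact letters of 7 motifs were searched on both strands of 300-base windows, 250 before and 50 after the start. TATAAA was found for Apob with its first base at -60 from the RefSeq start, for Apobec1 at -212 on the other strand, and in a window listed for Apoe at -96 and, on the other strand, -100, and 13.6% of 32544 mouse promoters hold it. None of the matched members held CAAAGTCCA (HNF4, 0.479% of promoters), CAAAGGTCA (nuclear receptors, 0.482%), or the HNF1 palindrome (0.00922%). They also held neither AGATAAG, the letters of the zinc-finger factors of the gut (3.02% of promoters), nor GGCGCC, an element bound by SMAD proteins under BMP signalling (11.9%), nor the SMAD palindrome GTCTAGAC (0.215%). A match or its absence describes only the letters of these windows, and near matches, which differ from a motif in any letter, were not searched.

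The BMP samples held 21358620 to 24784834 recovered reads, and the value of a single read ranged from 0.8258 to 1.2786 normalized counts, the unit of that table. The TGFb and mesenchymal tables are in TPM, a transcript abundance scaled to transcript length and library, whose depth is unknown. The epithelial label was checked against marker lists: the mesenchymal markers Dcn and Lum and the macrophage markers C1qb and C1qc had no row in the BMP table and were listed at 0 TPM in the 6 samples of the TGFb table. Other genes of these lists had low counts that differed between groups: mean Vim was at 149 normalized counts in controls and 34.5 with BMP2, Csf1r at 4.32 and 35.7, Cd68 at 22.6 and 50.8 and Pdgfra at 0.667 and 22.9, and mean Col1a1 went from 0.00284 to 0.58 TPM with Tgfb. Summed over 7 enterocyte markers, normalized counts were 49834 to 81252 in controls, 98683 to 153811 with BMP2, 368010 to 425700 with BMP4, 42366 to 71221 with BMP5 and 47814 to 74862 with BMP7. With BMP4 each of the 7 was called higher, but with BMP2 the list split: mean counts of Krt20 rose from 2088 to 63525 and Vil1 and Alpi also rose, while Sis fell from 24575 to 1600, Fabp1 from 13825 to 1943 and Lct from 241 to 58.9, and Fabp2 did not pass. Summed over 4 markers of crypt stem and transit cells they were 100248 to 127945 in controls, 189 to 987 with BMP2, 4585 to 7214 with BMP4, 32129 to 80714 with BMP5 and 29323 to 33499 with BMP7. Their part in the changes below was not tested, and in bulk samples fewer cells of a type and less RNA per cell cannot be told apart.

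In untreated organoids of the TGFb table, where TPM allows genes to be ranked per length, the apolipoproteins of the A group stood highest. Apoa1 was at 539 ± 96.3 TPM (SD, n = 3) and Apoa4 at 384 ± 79.7. Mttp followed at 258 ± 27.0 TPM. Below it Apob at 115 ± 27.1, Sar1b at 107 ± 10.0, Apoc2 at 99.99 ± 33.6 and Apoc3 at 97.7 ± 15.6 TPM had overlapping ranges and no fixed order over the 3 samples. Apoa1 and Apoa4 also overlapped in range, although Apoa1 was the higher in each of the 3 samples. Apobec1 stood lower at 6.50 ± 0.846 TPM and Apoe lowest at 1.60 ± 0.475 TPM. The 9 genes together held 0.133% to 0.189% of all TPM in untreated samples and 0.236% to 0.322% with Tgfb.

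BMP4 raised 8 of the 9 genes, and BMP2 split them. With BMP4, Apoa1, Apoa4, Apob, Apoc2, Apoc3, Mttp, Apobec1 and Sar1b rose by log2 fold changes of 1.94 to 2.90 against untreated organoids, and Apoe alone did not pass the test. With BMP2, Apob and Apobec1 rose and Mttp, Apoc3 and Apoe fell. BMP5 and BMP7 raised Apobec1, and with BMP3 no member passed. These calls come from a fit that does not pair samples by replicate number. With that number as a block, Apob also passed higher and Mttp and Sar1b lower with both BMP5 and BMP7. That fit called 38.9% of all genes with BMP5 and 45.4% with BMP7. Read against all 14746 genes tested, 33.7% were called higher with BMP4 (65.1% in either direction), so 8 of 9 lies above that share. The set was chosen with earlier results of these data known, so that reading is not independent of the choice. With BMP2, 36.8% of all genes were called higher and 38.4% lower (75.1% together), so 5 of 9 members is below the share of all genes. The shares were 26.3% with BMP5 (16.5% higher), 32.4% with BMP7 (19.2% higher) and 0% with BMP3. The median log2 change of the members was 2.34 with BMP4 and 0.09 with BMP2, beside 0.04 and -0.03 over all genes. Calls are from limma with Benjamini-Hochberg adjustment over all genes and a threshold of 0.05 on the adjusted p, and fold changes are on the scale of log2(normalized counts + 1). Each ligand was compared with the same 4 controls, so the comparisons are not independent of each other. Rescaling every sample to the same total shifted the median change of all genes by -0.46 with BMP2 and by -0.40 with BMP4 on the log2 scale. The 8 genes raised by BMP4 remained above 0 with that rescaling and under the other alternatives examined.

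**Figure D1:**
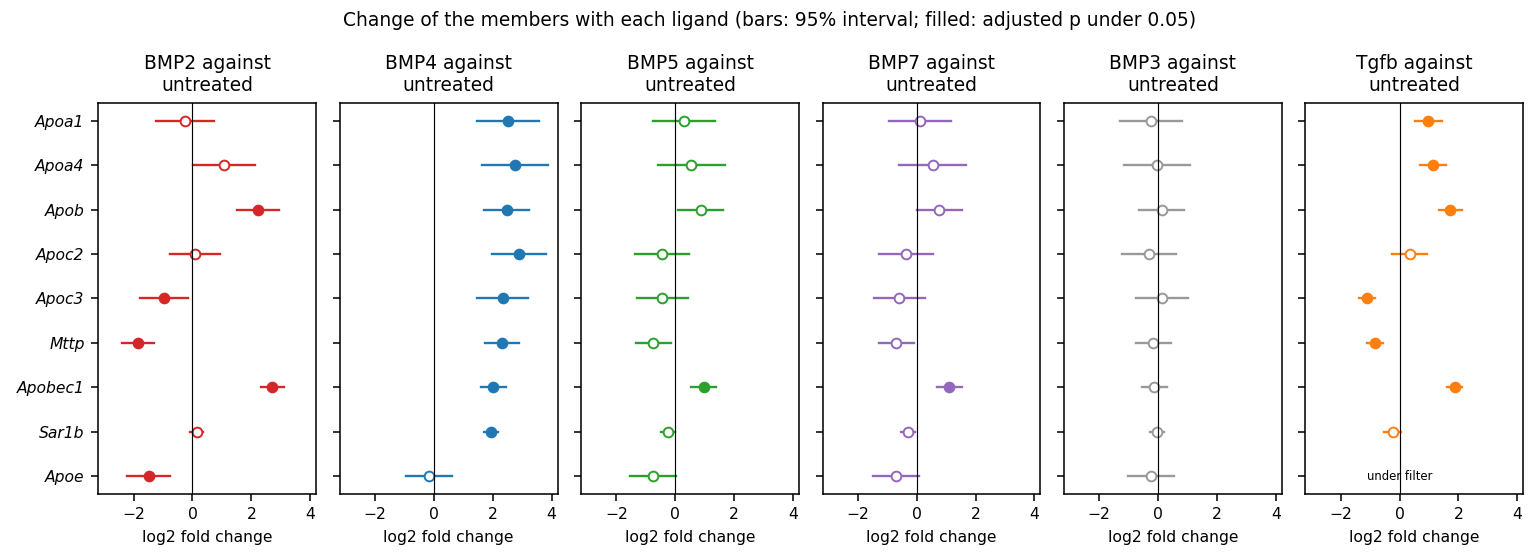
Each point is the log2 fold change of 1 member (rows) against untreated organoids of its own table, 1 panel per ligand, with a bar for the 95% confidence interval from limma and a filled point where the adjusted p was under 0.05. With BMP4 8 points lie between 1.94 and 2.90, with BMP2 the filled points are Apob and Apobec1 above 0 and Mttp, Apoc3 and Apoe below it, with Apoa4 open at 1.07, and with BMP3 all intervals cross 0.

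Apob, the structural core of the particle, was at 17000, 17000, 37700 and 18400 normalized counts in control replicates II, III, IV and VI. The BMP2 samples were at 94000, 75900, 215000 and 62200 in the same order. With BMP4 it was at 123000, 148000 and 88800 in replicates II, III and VI. Every sample with either ligand lay above every control, and replicate IV stood highest in both the control and the BMP2 group. The log2 fold change was 2.22 ± 0.339 (SE) with BMP2 (adjusted p 8.5e-06, limma) and 2.47 ± 0.366 with BMP4 (adjusted p 9.5e-06, limma), that is 4.67-fold and 5.55-fold. Within pairs of samples with the same number, the ratio to control was 3.38 to 5.70 in 4 pairs with BMP2 and 4.83 to 8.71 in 3 pairs with BMP4. Compared directly, BMP2 and BMP4 differed by -0.25 log2 for Apob, with a 95% interval of -1.02 to 0.52 (adjusted p 0.571, limma). BMP2 lay below BMP4 in 3 of 3 pairs of the same number, and with the number as a block the difference was -0.55 (adjusted p 0.0102, limma), although the numbers are not shown to pair these samples.

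Apobec1, which edits the Apob message, was at 354, 246, 305 and 363 normalized counts in control replicates II, III, IV and VI. The BMP2 samples were at 2060, 2020, 2030 and 2100, a narrow range that lay above every other sample of the table. With BMP4 it was at 1400, 1080 and 1380 in replicates II, III and VI. Its log2 fold change was 2.71 ± 0.188 with BMP2 (6.53-fold, adjusted p 2.2e-10, limma) and 2.02 ± 0.203 with BMP4 (4.07-fold, adjusted p 8.6e-08). Apobec1 was the one member higher with BMP2 than with BMP4, by 0.68 ± 0.203 log2 (adjusted p 0.00637, limma), and the ranges of those groups did not overlap. With BMP5 it was at 489, 536 and 877 and with BMP7 at 705, 495 and 879 normalized counts in replicates II, III and VI. These samples all lay above the controls, with log2 changes of 0.96 ± 0.203 (adjusted p 0.00164) and 1.10 ± 0.203 (adjusted p 0.000393, limma). The levels thus stood in the order BMP2, BMP4, then BMP7 and BMP5 with overlapping ranges, then untreated and BMP3 with overlapping ranges.

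Mttp, which loads the lipid, showed the widest gap between BMP2 and BMP4 among the 9 genes. In control replicates II, III, IV and VI it was at 12600, 12800, 18300 and 21300 normalized counts. The BMP2 samples were at 3280, 3380, 4290 and 7810, and with BMP4 at 81200, 77800 and 77900. The 3 groups did not overlap: every BMP2 sample lay below and every BMP4 sample above the controls. The log2 fold change was -1.85 ± 0.259 with BMP2 (3.61-fold lower, adjusted p 3.0e-06, limma) and 2.32 ± 0.279 with BMP4 (4.99-fold higher, adjusted p 8.1e-07). Between BMP2 and BMP4 directly it was -4.17 ± 0.279, which is 17.98-fold (adjusted p 2.6e-10, limma). Mttp overlaps the antisense gene Gm43691 and the start of Trmt10a in GENCODE M21, by gene span and without a comparison of exons. Strand use in the authors' counting is not given in the sources used here. Whether reads of these genes were counted for Mttp is therefore unknown.

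Sar1b, the GTPase of the export vesicle, changed with BMP4. It was at 1670, 1640, 1670 and 2140 normalized counts in control replicates II, III, IV and VI and at 6930, 7270 and 6190 with BMP4 in II, III and VI. The 3.83-fold rise (log2 1.94 ± 0.115, adjusted p 1.6e-10, limma) left a gap between the groups. In the BMP2 group Sar1b was at 2070, 1980, 1630 and 2140, within the range of the controls but for 1 sample just below it (log2 0.14 ± 0.106, adjusted p 0.252, limma). After rescaling to the same total, that value turned to -0.32 with an adjusted p of 0.00847, over a range of 0.00847 to 0.485 across the alternatives. The control level of the paralog Sar1a was 1940 ± 187 normalized counts (SD over 4 samples), against 2858 ± 327 with BMP2 (n = 4) and 1983 ± 189 with BMP4 (n = 3). It rose by 0.56 ± 0.0939 log2 with BMP2 (adjusted p 2.9e-05, limma), while its BMP4 value of 0.03 did not pass (adjusted p 0.798). Reads shared by the 2 paralogs could have been split between them by the quantification. Sec24a, a subunit of the same vesicle coat, is annotated head to head with Sar1b, with 52 bases between the 2 genes in GRCm38, and was at 2060 ± 176 in controls, 2008 ± 148 with BMP2 and 6293 ± 66.6 with BMP4 (log2 1.61 ± 0.0864, adjusted p 5.0e-11, limma). It was singled out after its values were seen.

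**Figure D2:**
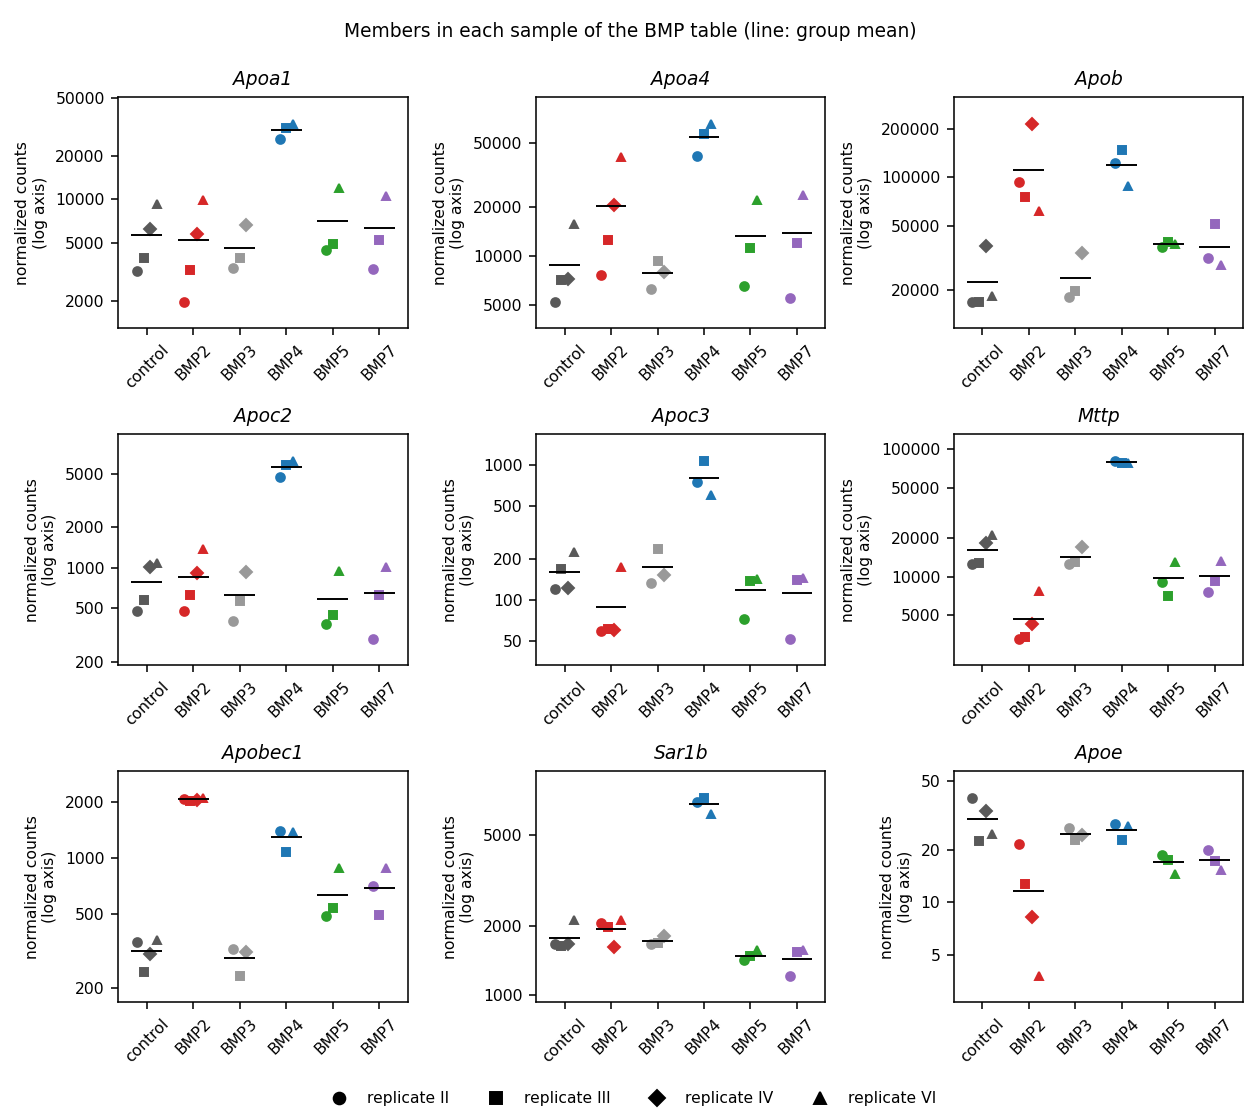
Each panel shows 1 member in the 20 samples of the BMP table as normalized counts on a log axis, with groups on the horizontal axis, marker shape for the replicate number and a line at the group mean. The BMP4 samples stand above all controls for 8 genes, Mttp separates BMP2 (3280 to 7810) from controls (12600 to 21300) downward, and Apobec1 is highest with BMP2 (2020 to 2100).

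Apoa1 and Apoa4, the surface apolipoproteins of the A group, rose with BMP4. Apoa1 was at 3200, 3970, 6260 and 9360 normalized counts in control replicates II, III, IV and VI and at 26200, 31000 and 33200 with BMP4 in II, III and VI. Its log2 fold change with BMP4 was 2.52 ± 0.503 (5.74-fold, adjusted p 0.000231, limma). In the BMP2 group Apoa1 was at 1970, 3240, 5750 and 9970, a range that encloses that of the controls (log2 -0.26 ± 0.465, adjusted p 0.632, limma). Apoa4 was at 5210, 7070, 7170 and 15700 in the controls and at 41600, 56800 and 65700 with BMP4 (log2 2.74 ± 0.536, 6.70-fold, adjusted p 0.000189, limma). With BMP2 Apoa4 was at 7640, 12500, 20600 and 40800, overlapping the controls, and its log2 change of 1.07 ± 0.496 had an adjusted p of 0.059. Each of the 4 BMP2 samples was 1.47 to 2.87 times the control of its number, though the numbers are not shown to pair samples. Over 19 alternatives that p ranged from 0.00023, with the replicate number as a block, to 0.452, and it was also under the threshold with edgeR (0.0453) and DESeq2 (0.0376) on recovered reads, without BMP2 replicate II (0.0141), without control replicate VI (0.0209) and without every sample numbered VI (0.0245). Apoa4 overlaps the genes Gm10680 and Gm47528 on the other strand in GENCODE M21, so its reads could be mixed with theirs. Gm10680 was at 18.6 to 320 normalized counts, which is 0.343% to 0.543% of the Apoa4 value of the same sample.

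Apoc2 and Apoc3 act in opposite ways on lipoprotein lipase, and both rose with BMP4. Apoc2 was at 474, 572, 1010 and 1090 normalized counts in control replicates II, III, IV and VI and at 4710, 5780 and 6240 with BMP4. Its change of 2.90 ± 0.435 log2 (7.48-fold, adjusted p 1.1e-05, limma) was the highest of the 9 genes with BMP4. With BMP2 it was at 478, 625, 918 and 1380, overlapping the controls at log2 0.09 ± 0.403 (adjusted p 0.857). Apoc2 overlaps the readthrough gene Gm44805 on its own strand by gene span, and whether reads from that gene were counted for Apoc2 is unknown. Apoc3 was at 120, 169, 123 and 228 normalized counts in the controls and at 754, 1080 and 597 with BMP4 (log2 2.34 ± 0.413, 5.06-fold, adjusted p 6.7e-05, limma). With BMP2 it was at 59.0, 61.4, 60.0 and 175, where 3 samples lay below every control and replicate VI lay among them. Its fall by 0.97 ± 0.383 log2 had an adjusted p of 0.0294 (limma). That call was lost under quantile normalization (adjusted p 0.185) and without any 1 of control replicates III (0.0599) and VI (0.0957) and BMP2 replicates II (0.0816), III (0.0784) and IV (0.0801), over a range of 0.00202 to 0.185 across 19 alternatives. Between BMP2 and BMP4 the difference was -3.31 ± 0.413 for Apoc3 and -2.82 ± 0.435 for Apoc2 on the log2 scale (adjusted p 1.1e-06 and 1.4e-05, limma).

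Apoe, the receptor ligand, stood near the lower end of what these libraries measure. It was at 40.0, 22.4, 33.7 and 24.8 normalized counts in control replicates II, III, IV and VI, which is 27 to 45 reads. With BMP2 it was at 21.6, 12.8, 8.23 and 3.80, or 3 to 19 reads, and all 4 lay below the controls. With BMP4 it was at 28.4, 22.8 and 27.5, inside the range of the controls. The log2 change was -1.49 ± 0.344 with BMP2 (adjusted p 0.000703, limma) and -0.17 ± 0.372 with BMP4 (adjusted p 0.715). Over the 18 alternatives for BMP2 it lay between -1.91 and -0.94, with adjusted p at most 0.0126. The blood-cell markers C1qb and C1qc have no row in this table, and the summed level of the other blood-cell markers, 6 of 8 with a row, was 59.4 to 106 normalized counts in controls and 80.0 to 198 with BMP2. Within that list Csf1r and Cd68 were called higher with BMP2 and Lyz2 was called lower (37.3 to 19.3), and C1qa went from 5.39 to 1.17 as group means. The summed level of the mesenchymal markers, 5 of 7 with a row (Dcn and Lum have none), was 122 to 206 in controls, 70.4 to 91.8 with BMP2 and 25.1 to 26.1 with BMP4. The part of either list in the Apoe values was not tested.

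BMP2 and BMP4 thus differed for 8 of the 9 genes when compared directly, with 7 lower and 1 higher with BMP2, while 66.8% of all genes tested were called in that comparison, 33.4% in each direction. The 7 were Mttp, Apoc3, Apoc2, Apoa1 (-2.78), Sar1b (-1.80), Apoa4 (-1.67) and Apoe (-1.32 log2), with adjusted p at most 0.0101 (limma). The median of the members was -1.80 beside 0.01 over all genes. A moderated F-test (limma) over the 5 BMP ligands called 9 of 9 members, with adjusted p at most 0.018, beside 84.1% of all genes.

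BMP5 and BMP7 each left 8 of the 9 members short of the threshold in the fit without a replicate block. Apob was at 37200, 39600 and 38500 normalized counts with BMP5 and at 31800, 51200 and 28600 with BMP7 in replicates II, III and VI, above control replicates II, III and VI but overlapping control replicate IV. Mttp was at 9130, 7060 and 13000 with BMP5 and at 7550, 9340 and 13400 with BMP7, each below the control of its number. Sar1b was at 1420, 1480 and 1570 with BMP5 and at 1220, 1540 and 1570 with BMP7, all below the lowest control at 1640. For Apoe the samples with BMP5 (18.8, 17.6 and 14.6) and BMP7 (20, 17.3 and 15.4) also lay below the lowest control at 22.4. None of these 4 genes passed the test with either ligand, with adjusted p of 0.0559 for Mttp with BMP5 and 0.0512 for Sar1b with BMP7 as the lowest. Counting ranges that did not overlap the controls gives 3 of 9 members with each ligand (Apobec1, Sar1b and Apoe), beside 35.7% of all genes with BMP5 and 42.4% with BMP7. With the replicate number as a block, 4 members passed with each ligand instead of 1: Apobec1, and also Apob (1.16 with BMP5 and 1.06 with BMP7), Mttp (-0.71 and -0.65) and Sar1b (-0.28 and -0.34 log2). The adjusted p of these 3 in the blocked fit (limma) was at most 0.0437 with BMP5 and 0.0163 with BMP7. That fit called 38.9% of all genes with BMP5 and 45.4% with BMP7, so 4 of 9 members is close to the share of all genes. BMP7 and BMP5 differed for 0 of the 9 members when compared directly, beside 0.0136% of all genes, with log2 differences of -0.18 to 0.14. The 95% intervals of these differences were wide for Apoa1 (-1.31 to 0.94) and Apoa4 (-1.21 to 1.19) and narrowest for Sar1b (-0.31 to 0.20). For each gene, differences within its own interval are not excluded.

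BMP3 moved none of the 9 genes past the test, with log2 changes of -0.31 to 0.13 and adjusted p of 1 (limma). No gene of the 14746 was called with BMP3, 110 had an unadjusted p under 0.05, and edgeR called 0 and DESeq2 called 1 on recovered reads. Apob was at 18300, 19700 and 34000 normalized counts in BMP3 replicates II, III and IV, and Mttp at 12600, 13100 and 17200. In both genes replicate IV was highest in the BMP3 group, and each value was within 1.16 times of the control of its number.

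Samples numbered VI stood high for most of the set. In the 5 groups that hold replicates II and VI, Apoa1, Apoa4 and Apoc2 were highest in VI and lowest in II in 5 of 5 groups. The ratio of VI to II was 1.27 to 5.06 for Apoa1, 1.58 to 5.34 for Apoa4 and 1.32 to 3.39 for Apoc2. Apoc3, Mttp, Apobec1 and Sar1b were each highest in VI in 4 of 5 groups, and BMP4 was the exception for each. Their ratios were 0.792 to 2.97, 0.959 to 2.38, 0.986 to 1.79 and 0.893 to 1.29 in that order. Apob did not follow, with ratios of 0.662 to 1.08, and Apoe ran the other way at 0.176 to 0.968. The summed enterocyte markers were also higher in VI than in II in 4 of 5 groups, by 0.875 to 1.68 times over the 5. The summed markers of some other cells were lower in VI than in II in 5 of 5 groups: goblet (0.369 to 0.636 times), enteroendocrine (0.421 to 0.777), Paneth (0.481 to 0.971), tuft (0.779 to 0.993) and blood cells (0.326 to 0.704). The remaining lists had no fixed direction. Crypt (0.497 to 3.69 times) and mesenchymal markers (0.879 to 1.57) were higher in VI in 3 of 5 groups, and hepatocyte markers (0.57 to 2.16) in 2 of 5. The part of these markers in the member ratios was not tested. Without every sample numbered VI, an alternative chosen after the values were seen, BMP4 called 8 members and BMP2 called 6, Apoa4 being added, beside 60.6% and 72.2% of all genes.

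**Figure D3:**
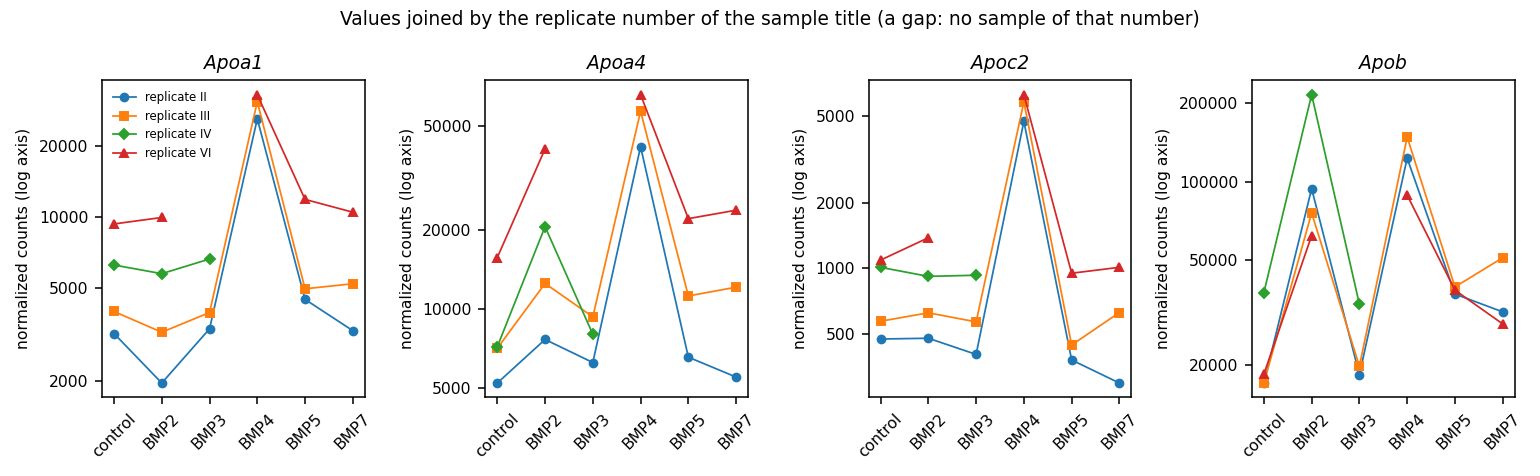
Normalized counts (log axis) of Apoa1, Apoa4, Apoc2 and Apob by treatment, with a line joining the samples that carry the same replicate number in their title. For the first 3 genes replicate VI lies above replicate II in each group holding both, while for Apob replicate IV stands highest in the control (37700), BMP2 (215000) and BMP3 (34000) groups.

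Tgfb, tested in its own table, raised 4 members and lowered 2 of the 8 tested. Apob was at 97.7, 100.3 and 146 TPM in control replicates I, II and III and at 340, 376 and 413 TPM with Tgfb. Apobec1 was at 5.81, 6.23 and 7.44 TPM in controls and at 26.6, 24.6 and 27.9 TPM with Tgfb. Neither pair of groups overlapped, and on the scale of log2(TPM + 1) Apob rose by 1.73 ± 0.166 (adjusted p 0.000105) and Apobec1 by 1.87 ± 0.111 (adjusted p 1.1e-05, limma). Apoa1 went from 558, 435 and 625 TPM to 1004, 875 and 1318 TPM, and Apoa4 from 386, 303 and 462 to 812, 704 and 1014 TPM. Both A-group genes rose in each of the 3 samples, with log2 changes of 0.98 ± 0.191 (adjusted p 0.0034) and 1.14 ± 0.191 (adjusted p 0.00163, limma). Mttp fell from 253, 234 and 287 TPM to 141, 131 and 162 TPM (log2 -0.83 ± 0.114, adjusted p 0.0006, limma). Apoc3 fell from 95.8, 83.1 and 114 TPM to 44.97, 43.33 and 45.08 TPM (log2 -1.11 ± 0.117, adjusted p 0.000165, limma). For both genes every Tgfb sample lay below every control. Apoc2 at 120, 106 and 140 TPM with Tgfb overlapped its controls at 109, 62.7 and 128 TPM (adjusted p 0.283), and Sar1b at 77.1, 97.5 and 100.8 TPM overlapped 97.5, 107 and 117 TPM (adjusted p 0.145, limma). Apoe, under the filter, was at 2.04, 1.68 and 1.10 TPM in controls and at 1.08, 0.721 and 0.464 TPM with Tgfb.

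Of all 7880 genes tested with Tgfb, 64.3% were called, 31.4% higher and 32.9% lower. The median of the 8 members was 0.66 beside -0.01 over all genes. The summed 7 enterocyte markers were 3823 to 5379 TPM in controls and 2521 to 3135 TPM with Tgfb. That list split as well, with mean levels of Fabp1 falling from 3077 to 1025 TPM and Sis and Fabp2 also falling, while Krt20 rose from 67.9 to 806 TPM and Alpi and Vil1 also rose. The summed 4 crypt markers were 2311 to 2723 and 141 to 151 TPM. Their part in the member changes was not tested. BMP2 in the other table also had Apob and Apobec1 called higher and Mttp and Apoc3 called lower, but the tables were normalized separately and the difference between the effects was not tested.

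**Figure D4:**
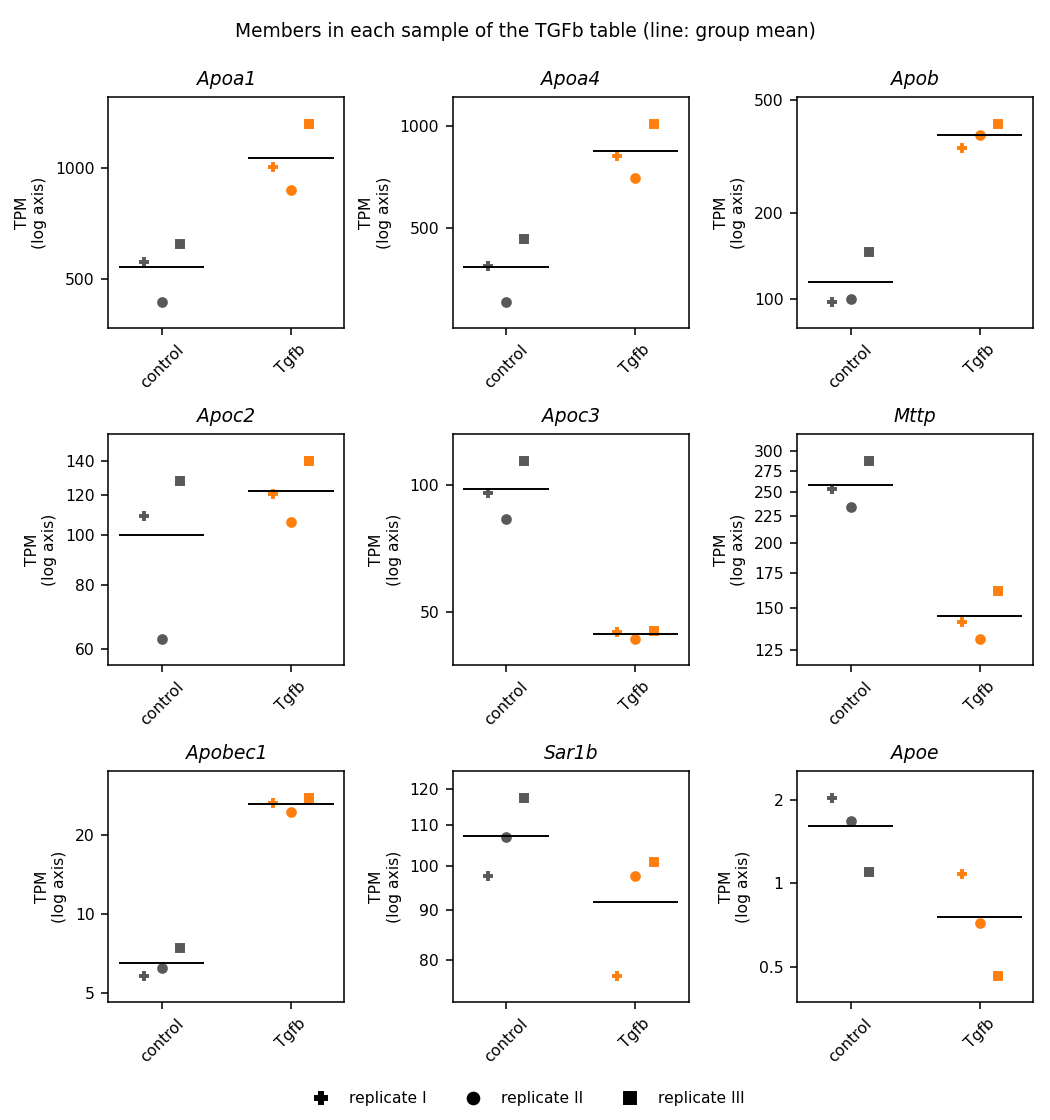
Each panel shows 1 member in the 6 samples of the TGFb table as TPM on a log axis, with control and Tgfb on the horizontal axis, marker shape for the replicate number and a line at the group mean. Apob, Apobec1, Apoa1 and Apoa4 lie higher with Tgfb in each sample, Mttp and Apoc3 lie lower, and Apoc2 and Sar1b overlap.

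Mesenchymal cells, which surround the epithelium, were nearly without most of these messages. With 1 sample per group and no replicate, Apoa1, Apoa4, Apoc2 and Apoc3 were listed at 0 TPM in freshly isolated cells, and Apob at 0.00815 TPM. In cells immortalised with the E6 gene of HPV16 and sorted for eGFP, Apoa1 was at 0.0656, Apoa4 at 0.0329 and Apob at 0.00785 TPM, and Apoc2 and Apoc3 were again listed at 0. Apoe stood at 81.2 TPM in fresh and 4.16 TPM in immortalised cells, and Sar1b at 67.1 and 55.7 TPM. Mttp was at 1.11 and 0.735 TPM and Apobec1 at 5.23 and 1.19 TPM. The order of Apoe and Apoa1 was thus the reverse of that in untreated organoids, as levels in separately normalized tables.

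The partners of chylomicron assembly and export moved with the members in BMP4. Of 24 tested genes of this list, 21 rose and 1 fell with BMP4 (median log2 1.16, beside 0.04 over all genes), and 13 rose and 5 fell with BMP2 (median 0.26). Over all genes, 33.7% were called higher with BMP4 (65.1% in either direction). With BMP2, 36.8% of all genes were called higher and 38.4% lower (75.1% together), so the total called in this list lies near that share. Cidec, a lipid-droplet protein, rose with both, from a control level of 122 ± 15.3 normalized counts (SD over 4 samples) to 1069 ± 230 with BMP2 (n = 4) and 1130 ± 43.6 with BMP4 (n = 3). Tm6sf2, which acts in lipidation of the particle, parted like Mttp, from 866 ± 241 to 494 ± 135 with BMP2 (log2 -0.81 ± 0.249) and 4633 ± 65.1 with BMP4 (log2 2.46 ± 0.269, adjusted p 0.00688 and 2.4e-07, limma). P4hb, the partner subunit of the transfer protein, fell by 0.71 ± 0.116 with BMP2. Mia2, a cargo receptor for large particles, rose by 1.39 ± 0.095 with BMP2, and Syncrip, an RNA-binding protein linked to Apob editing, fell by 1.09 ± 0.123 with BMP4.

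The genes that supply triglyceride rose together with BMP4, 13 of 13 (median log2 2.44), and were divided with BMP2, 7 higher and 5 lower. Beside them, 33.7% of all genes were called higher with BMP4, and 36.8% higher and 38.4% lower with BMP2. The fatty acid transporter Slc27a4 rose from 1291 ± 359 to 16333 ± 3109 normalized counts with BMP4 (log2 3.68 ± 0.299, adjusted p 6.6e-09), and the fatty acid binding protein gene Fabp2 from 3818 ± 1246 to 44867 ± 2053 (log2 3.61 ± 0.271, adjusted p 2.6e-09, limma). With BMP2, Plin2, a lipid-droplet coat protein, rose from 974.8 ± 61.1 to 7540 ± 930 and Dgat2, an enzyme of the last step of triglyceride synthesis, from 684 ± 114 to 5125 ± 1388 (adjusted p 1.4e-12 and 1.0e-09, limma). In contrast, Fabp1 fell with BMP2 from 13825 ± 4102 to 1943 ± 859 and the fatty acid receptor Cd36 from 126 ± 73.1 to 26.3 ± 8.33 (adjusted p 5.8e-08 and 0.000382, limma). Dgat1, whose product acts at the same step as Dgat2, also fell with BMP2, from 2267.5 ± 583 to 1542.5 ± 421 (log2 -0.56 ± 0.217, adjusted p 0.0258, limma). It was singled out after its values were seen. Fabp1 and Fabp2 are also among the enterocyte markers.

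Among 24 tested regulators known to act on apolipoprotein genes, 16 rose and 4 fell with BMP4 (median log2 0.89), and 7 rose and 9 fell with BMP2 (median 0.04). The shares of all genes were 65.1% with BMP4 (33.7% higher) and 75.1% with BMP2 (36.8% higher and 38.4% lower), so the BMP2 counts do not exceed them. Maf, a transcription factor of the villus, rose from 192 ± 43.8 to 7033 ± 908 normalized counts with BMP4 (log2 5.21 ± 0.191), and Creb3l3, an activator of several apolipoprotein genes, from 1032 ± 280 to 7550 ± 286 (log2 2.91 ± 0.27). The forkhead genes Foxa2 and Foxa3 fell with BMP4 by 2.72 ± 0.217 and 1.36 ± 0.259, while Foxa1 rose by 2.87 ± 0.162 with BMP2. Also with BMP2, the repressor gene Prdm1 rose by 4.01 ± 0.28, the nuclear receptor gene Nr5a2 fell by 4.40 ± 0.255, and Ppara, the fatty acid sensor, fell by 2.84 ± 0.235 log2. The highest adjusted p of the genes named in this group was 0.000149 (limma). Hnf4g, singled out after its values were seen, went from 2365 normalized counts in controls to 693 with BMP2 and 11733 with BMP4, both past the test.

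**Figure D5:**
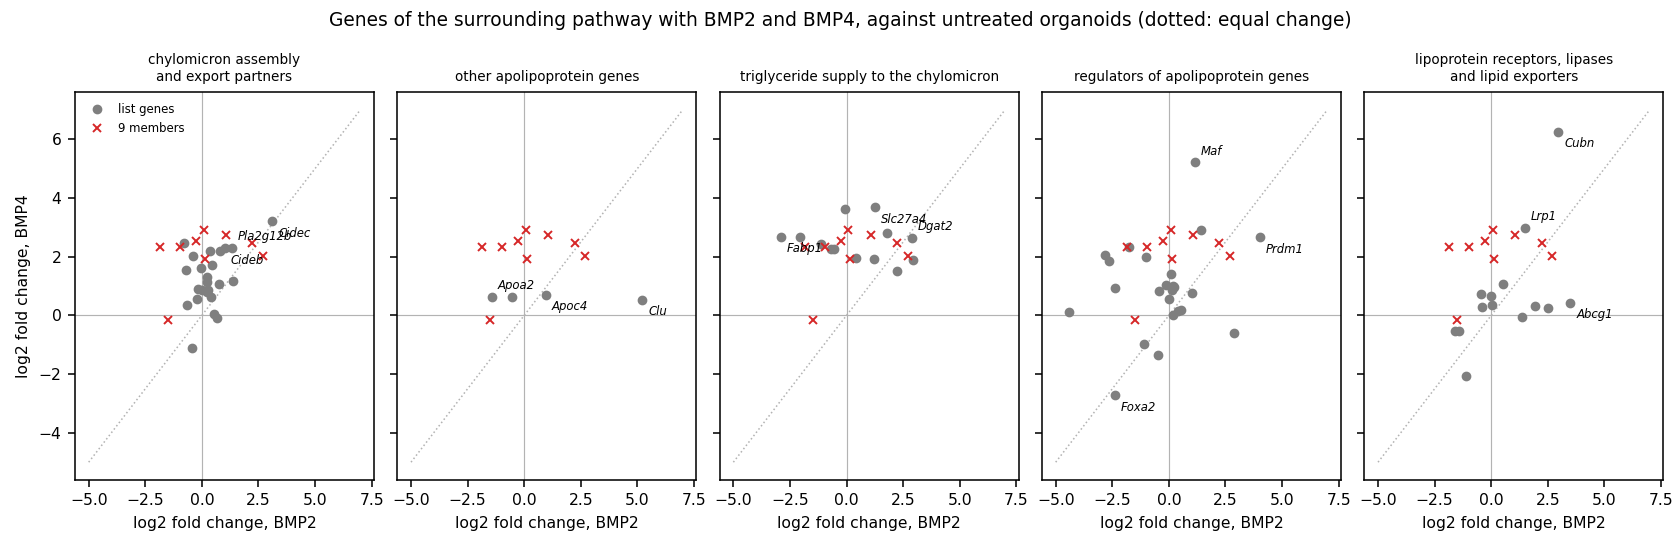
Each grey point is a gene of 1 of the 5 pathway lists, placed by its log2 fold change with BMP2 (horizontal) and with BMP4 (vertical) against the same 4 controls, with the 9 members as red crosses and the dotted line marking equal change. Of the triglyceride supply genes 13 of 13 lie above 0 on the BMP4 axis, and 7 were called higher and 5 lower on the BMP2 axis, beside 36.8% and 38.4% of all genes.

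Receptors, lipases and lipid exporters showed no common direction, with 4 of 14 higher and 3 lower with BMP4 and 7 higher and 3 lower with BMP2. These totals stand beside 65.1% of all genes called with BMP4 and 75.1% with BMP2, and do not exceed those shares. The endocytic receptor gene Cubn, whose product binds apolipoprotein A-I, rose from 7.79 ± 4.97 normalized counts to 62.0 ± 12.1 with BMP2 and 692 ± 413 with BMP4. Lrp1 rose by 2.98 ± 0.321 and Lrp8 fell by 2.06 ± 0.144 with BMP4, and Abca1, which lipidates apolipoprotein A-I, rose by 2.52 ± 0.215 with BMP2 (adjusted p at most 2.0e-07, limma). Sort1 fell by 1.60 ± 0.125 with BMP2.

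With BMP5, 1 of the 24 assembly partners was called higher and 4 lower, and of the 24 regulators 3 were called higher and 7 lower. In the blocked fit these became 3 and 7 partners and 4 and 10 regulators, where 38.9% of all genes were called instead of 26.3%. With BMP7, 3 partners were called higher and 4 lower, and 4 regulators higher and 7 lower, which became 5 and 5, and 6 and 9, in the blocked fit, where 45.4% of all genes were called instead of 32.4%. Of the 13 triglyceride supply genes 4 were called higher and 2 lower with BMP5, and 4 higher and 3 lower with BMP7, which became 5 and 3, and 6 and 3, in the blocked fit. With Tgfb, which called 64.3% of all genes, 6 of 24 partners were called higher and 5 lower, 6 of 12 supply genes higher and 4 lower, and 5 of 17 regulators higher and 9 lower. No gene of the 5 lists was called with BMP3.

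Of 12 other apolipoprotein and HDL-associated genes, 4 passed the filter in the BMP table. Apart from Clu they had low counts, with means of 23.0 normalized counts for Apoc4, 12.4 for Apoh and 10.1 for Apoa2, beside a filter of 10. None of the 4 was called with BMP4 (median log2 0.64, adjusted p 0.0827 to 0.276, limma), beside 65.1% of all genes. In the blocked fit, which called 71.8% of all genes, 3 of them passed. Clu, or apolipoprotein J, rose from a control level of 3440 ± 768 normalized counts (SD over 4 samples) to 126000 ± 10100 with BMP2 (n = 4, log2 5.22 ± 0.288, adjusted p 1.1e-11, limma) and was at 5087 ± 1727 with BMP4 (n = 3). With Tgfb it rose from 21.5 ± 5.39 to 3855 ± 232 TPM (n = 3 each, log2 7.45 ± 0.169, adjusted p 4.7e-07, limma).

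Of the 9 members, 5 lie in gene clusters, and their neighbours there were measured beside them. Apoa1, Apoc3, Apoa4 and Apoa5 follow one another on mouse chromosome 9 between Sik3 and Zpr1. With BMP4, Sik3, Zpr1, Bud13 and Pafah1b2 fell by 0.33 to 0.64 log2, against rises of 2.34 to 2.74 for the 3 members between them. Apoa5, between Apoa4 and Zpr1, was at 0 to 45 normalized counts and at 0 in 10 of the 20 samples. With BMP2, Sik3 rose by 0.46 and Pafah1b2 by 0.53, Bud13 fell by 0.36, and Zpr1 did not pass the test (adjusted p 0.354, limma). Apoc2 and Apoe lie on either side of Apoc4 and Apoc1 on chromosome 7, where Apoc2 rose by 2.90 log2 with BMP4 and Apoe did not pass. Apoc4 between them was at 17.8 ± 7.47 normalized counts in controls and 28.8 ± 9.42 with BMP4 (adjusted p 0.0827, limma), and Apoc1 was at 0 in 17 of the 20 samples. Beyond Apoe, Tomm40 fell by 0.45 and Nectin2 rose by 0.71 with BMP4, Clptm1 beyond Apoc2 rose by 0.56, and the difference between these genes and the members was not tested.

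As a description, the members were compared with 11856 other genes by Pearson correlation of log2(normalized counts + 1) over the 20 samples of the BMP table, which share the group structure, so no p is given. The closest genes to Mttp were Ehhadh, a peroxisomal enzyme (r = 0.992), Cyp2c66 (0.991) and Lrrc19 (0.990), and that to Apobec1 was Chp1 (0.990), a calcium-binding protein. Sar1b was closest to Crip1 (0.989), Apoc2 to Fmo5 (0.982), Apoa1 to the carboxylesterase Ces2c (0.968), Apob to Kidins220 (0.959), Apoc3 to H2-Q1 (0.957) and Apoe to Sco2 (0.880). For Apoa4 it was the overlapping Gm10680 (0.987), followed by Sec14l2 (0.942). Among the members themselves Apoa1 and Apoc2 had an r of 0.937, Apoc3 and Mttp 0.920 and Apob and Apobec1 0.826, whereas Apob and Mttp had 0.1001 and Apobec1 and Mttp -0.130.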

How the data were processed

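The BMP table holds, as the deposited signal, read counts divided by a size factor and rounded to 3 significant digits: of 180721 values at or under 20 reads, 100.0% came out as whole reads within 0.1. The TGFb and mesenchymal tables hold TPM as the authors deposited it, summing to 1000000 per sample. Per the submitters' processing notes, Trim Galore, Salmon, DESeq2 and GRCm39 were used, with versions and roles not given in the sources used here. All value columns were mapped to samples by name.

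Raw counts had been foreseen, but the values were normalized, so the main test was limma (version 3.58.1, run under R 4.3.3), applied to log2 of the value after adding 1, with a mean of at least 10 required, 1 fit per table, two-sided, and Benjamini-Hochberg adjustment over all genes tested. The script was tested on simulated data. edgeR 4.0.16 and DESeq2 1.42.0 on recovered reads, other pseudocounts, filters and scalings, a replicate block and leaving samples out were alternatives. Summaries and figures used Python 3.11.15 with pandas 2.3.3, numpy 2.4.6 and matplotlib 3.10.9.

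Replicate numbers come from the titles. Deviations from the group means of same-numbered samples correlated over 0.1 in every pair for BMP3 (0.281 to 0.553), BMP4 (0.19 to 0.225), BMP5 (0.158 to 0.262), BMP7 (0.236 to 0.294) and BMP7 against BMP5 (0.15 to 0.489), and not for BMP2, BMP2 against BMP4 or Tgfb. Comparisons over 0.1 were judged to be paired, but the main fits held no block and so did not use the pairing. It entered only in the alternative fit with the replicate number as a block and in the ratios and comparisons of same-numbered samples.

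The members and lists were chosen with earlier results of these data known. Named were all members and, from each list, the 2 genes with the highest and the 2 with the lowest change with BMP2 and with BMP4 among called genes with a mean of at least 50, the cluster neighbours, Sar1a, and the 3 genes most like each member, of which the text gives the first or more. The reference in use, GRCm38, differs from the authors' build and served only for sequences, gene order and overlaps. One gene that this rule selects is not reported here.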

Additional observations from a re-analysis of the deposited data

Results flagged for a closer look

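In 3 of 18 groups of 4 samples, 1 sample stood apart from the other 3 by a share of the range of the group above Dixon's 95% critical value, where chance alone gives about 1 in 20. Apob was at 37700 normalized counts in control replicate IV, beside 17000 to 18400 in the other controls, a gap of 0.932 of the range. Apoc3 was at 175 normalized counts in BMP2 replicate VI, beside 59.0 to 61.4 in the other BMP2 samples (0.979). Sar1b was at 2140 normalized counts in control replicate VI, beside 1640 to 1670 in the other controls (0.940).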

How the results depend on the processing

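With BMP4, 8 members were called under each of 18 alternatives, with log2 changes of at least 1.51 and adjusted p of at most 0.00358. The count of 1 called with BMP5 became 2 after rescaling to the same total, with DESeq2, with only the 2 groups in the fit and without every sample numbered VI, 3 with quantile normalization and 4 with the replicate block, and ranged from 1 to 2 when 1 sample was left out (2 without control replicate II, control replicate IV or BMP5 replicate VI). With BMP7 the count of 1 became 2 with a pseudocount of 10, a mean of at least 50, only the 2 groups and without every sample numbered VI, 3 with the same total, quantile normalization and DESeq2, and 4 with the replicate block, and ranged from 1 to 3 when 1 sample was left out (2 without control replicate IV or BMP7 replicate III, 3 without BMP7 replicate VI). Over those alternatives, all genes were called at 16.2% (without every sample numbered VI) to 38.9% (block) with BMP5 and 23.3% to 45.4% with BMP7. As reported, 1 of 9 members lay below the shares of 26.3% with BMP5 and 32.4% with BMP7. The 4 of 9 of the blocked fit lay near its shares of 38.9% and 45.4%. The replicate block gave 6 members with BMP2 (Apoa4 added, adjusted p 0.00023), 9 for BMP2 against BMP4 (Apob added, 0.0102) and 7 with Tgfb (Sar1b added, 0.0223), where the numbers are not shown to pair samples and 80.4%, 72.6% and 68.7% of all genes were called, and changed no other count of members called. The BMP2 calls also changed under other alternatives. Apoa4 was added with edgeR and DESeq2 (adjusted p 0.0453 and 0.0376), and Sar1b, as lower, after rescaling to the same total (0.00847, limma). Apoc3 was lost with quantile normalization (0.185, limma), and some fits with 1 sample left out added Apoa4 or lost Apoc3. Values that turned sign had not passed the test as reported. With 1 sample left out, Apoa1 ranged with BMP2 from -0.6522 to 0.1274, with BMP5 from -0.1497 to 0.5766 and with BMP7 from -0.3352 to 0.5017, and Apoc2 from -0.1859 to 0.3234 with BMP2 and from -0.7725 to 0.1063 with BMP7. The sign turned for Apoa1 without control replicate VI (0.02442) or BMP2 replicate II with BMP2, without BMP5 replicate VI, and with BMP7 without control replicate II (-0.1233) or III (-0.01968) or BMP7 replicate VI. It turned for Apoc2 with BMP2 without control replicate II (-0.1278) or III (-0.0376) or BMP2 replicate VI, and with BMP7 without BMP7 replicate II. Rescaling to the same total gave -0.3733 for Apoc2 and -0.3227 for Sar1b with BMP2, and quantile normalization -0.2016 for Sar1b with BMP2 and -0.03483 for Apoa1 with BMP7, which was -0.05476 without every sample numbered VI. After rescaling to the same total, 3601 genes were called higher and 7820 lower with BMP2, and 3080 and 6896 with BMP4, beside 5420 and 5657, and 4964 and 4633, as deposited. The cause of these changes was not tested. Depth limits Apoe most, at 3 to 45 reads per sample.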
